A study of Homo sapiens with 2 samples.

Results

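Fibronectin, laminin chains and the proteoglycans and collagens of the basement membrane were followed in RNA that came down in an RNA immunoprecipitation (IP) from Huh-7 cells. The 10 genes were taken by name from the deposited gene table, which lists 25556 genes: FN1, LAMA5, LAMB1, LAMB2, LAMC1, HSPG2, AGRN, COL4A1, COL4A2 and COL18A1. Huh-7 is an established human hepatocellular carcinoma line. The labels give its genotype as WT and name no drug or other agent for the cells. The series held 2 libraries, 1 of the IP, which took 90% of a lysate, and 1 of the input, the remaining 10%. The series design names an antibody to the splicing factor SRSF7, the IP carries the treatment label "SPSF7 Q16629" and the input the label "none", whereas the protocol of the samples names an antibody to the m6A reader YTHDF2 and poly(A) RNA. These statements differ and the files do not show which holds, so the libraries are called IP and input. With 1 library per group nothing below has a replicate check, and a difference between the libraries cannot be told apart from a difference between 2 library preparations.

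Basement membranes are thin sheets of matrix under epithelial and endothelial cells and around muscle and nerve. Laminins are trimers of an alpha, a beta and a gamma chain that polymerise at the cell surface, and type IV collagen forms a second network beside them. Perlecan (HSPG2), agrin (AGRN) and collagen XVIII (COL18A1) carry heparan sulfate chains and tie these networks to each other and to cells. Fibronectin (FN1) is a dimeric adhesive glycoprotein bound by integrins. Hepatocytes secrete a soluble form of it into plasma, and other cells assemble it into fibrils.

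Of the 10 genes, 8 had a mean of at least 1 RPKM over both libraries (reads per kilobase of merged exons, scaled to the reads assigned to genes), and each of these 8 was higher in the IP. Their ratios of IP to input ran between 1.54 for LAMB1 and 2.30 for LAMB2. The remaining 2 genes, COL4A1 and COL4A2, stayed below 1 RPKM in both libraries. Together the 10 genes took 61117 of 5897293 IP reads (1.04%) and 17132 of 2782045 input reads (0.616%). In bulk libraries the number of cells with an RNA and its amount per cell cannot be told apart. FN1 alone held 70.8% of these IP reads and 71.3% of these input reads.

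Intervals given with single genes are exact 95% intervals of the ratio of both read counts, and they cover counting error only. Low counts in this table are mostly even, as they would be if both mates of a read pair were counted, so the intervals were also computed with halved counts. With either count the interval lay wholly above 1 for 8 of the 10 genes and included 1 for COL4A1 and COL4A2. An interval wholly above 1 was found for 31.4% of all 14057 genes that passed the same limit of 1 RPKM, and for 47.4% of the 4911 protein-coding genes among them with at least 5000 bases of merged exons. These shares used the full counts only. They were not matched for read number, on which the width of an interval depends.

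FN1 was the most abundant of the genes on a per-length scale. It stood at 426 RPKM in the IP and 255 RPKM in the input, from 43253 and 12217 reads. Its ratio was 1.67 (interval 1.64 to 1.70, or 1.62 to 1.72 with halved counts). By number of IP reads FN1 was the fifth gene of the table. No source used here names the genome build of the deposited tables. The FN1 entry lies on the minus strand of chromosome 2 (215360440 to 215436073 in the deposited table) and merges 41 exon blocks into 17216 bases, more than any mature fibronectin mRNA holds. Such a length lowers the RPKM but not the ratio between libraries. The table counts whole genes, so that fibronectin transcripts with and without the alternatively spliced extra domains could not be told apart.

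Laminin chains were expressed at unequal levels, and all 4 were higher in the IP. LAMB1, a beta chain found in many embryonic and adult laminins, stood at 134.5 RPKM in the IP and 87.1 RPKM in the input (6403 and 1956 reads). Its ratio of 1.54 (interval 1.47 to 1.63) was the lowest of the 8 measured genes. LAMC1, the gamma chain shared by most laminins, stood at 91.7 RPKM in the IP and 55.2 RPKM in the input (4566 and 1296 reads), a ratio of 1.66 (1.56 to 1.77). Fewer reads came from LAMB2, the beta chain of synaptic and glomerular basement membranes, with 1329 reads and 32.8 RPKM in the IP against 272 reads and 14.2 RPKM in the input. LAMB2 had the highest ratio of the set, 2.30 (2.02 to 2.64). LAMA5, the alpha chain of most adult epithelial laminins, stood at 18.8 RPKM in the IP and 11.1 RPKM in the input (1588 and 440 reads), a ratio of 1.70 (1.53 to 1.90).

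The deposited table places LAMB1 at chr7:107923799-108003187 on the minus strand (8072 exonic bases) and LAMC1 at chr1:183023420-183145592 on the plus strand (8446 bases). LAMB2 lies at chr3:49121114-49133118 on the minus strand (6865 bases) and LAMA5 at chr20:62307955-62367312 on the minus strand (14291 bases). On the opposite strand LAMA5 shares 244 exonic bases with ADRM1 (1698 IP and 344 input reads) and 118 with LAMA5-AS1 (28 and 13). LAMB1 shares 70 with DLD (808 and 392) and 221 with AC005046.1 (12 and 11), also on the opposite strand. The part of these overlaps in the ratios was not tested.

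The beta chains differed from each other by more than counting error. The ratio of LAMB2 was 1.49 times that of LAMB1 (interval 1.30 to 1.72, or 1.22 to 1.83 with halved counts). The ratio of LAMC1 was 1.08 times that of LAMB1, with an interval of 0.993 to 1.17 that includes 1. Pairs were chosen after their values were seen, 6 in all.

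LAMA5 was the main alpha chain listed. Among the other alpha chains, LAMA3 had 0.970 RPKM in the IP and 0.294 RPKM in the input, LAMA1 had 6 and 4 reads, LAMA2 had 0 and 2, and LAMA4 had 8 and 0. LAMB3, another beta chain, had 2 IP and 3 input reads. NID1, which links laminin to type IV collagen, stood at 65.2 RPKM in the IP and 49.3 RPKM in the input, a ratio of 1.32 (1.22 to 1.44).

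The heparan sulfate proteoglycans of the set were all higher in the IP. COL18A1, whose C-terminal fragment is endostatin, stood at 37.9 RPKM in the IP and 17.0 RPKM in the input (1892 and 401 reads), a ratio of 2.23 (1.997 to 2.49). HSPG2, which encodes perlecan, stood at 12.3 RPKM in the IP and 6.59 RPKM in the input (1319 and 332 reads), a ratio of 1.87 (1.66 to 2.12). AGRN, known for clustering acetylcholine receptors at the nerve-muscle synapse, stood at 11.1 RPKM in the IP and 6.08 RPKM in the input (705 and 182 reads), a ratio of 1.83 (1.55 to 2.16).

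COL18A1 lies at chr21:45405165-45513720 on the plus strand (8464 exonic bases), HSPG2 at chr1:21822244-21937310 on the minus strand and AGRN at chr1:1020120-1056118 on the plus strand (10761 bases).

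HSPG2 and AGRN did not differ beyond counting error, the ratio of HSPG2 being 1.03 times that of AGRN with an interval of 0.832 to 1.26. The ratio of COL18A1 was 1.19 times that of HSPG2 (1.01 to 1.40), and with halved counts this interval ran from 0.941 to 1.51 and included 1. Against AGRN it was 1.22 times (0.996 to 1.49).

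Both genes of the common type IV collagen network were near the floor of the table. COL4A1 lies at chr13:110148963-110307157 on the minus strand and COL4A2 at chr13:110305812-110513209 on the plus strand. COL4A1 had 38 IP and 16 input reads, 0.439 and 0.392 RPKM, and a ratio of 1.12 with an interval of 0.610 to 2.15. COL4A2 had 24 IP and 20 input reads, 0.211 and 0.373 RPKM, and a ratio of 0.566 (0.2997 to 1.08). A difference between IP and input was not detectable at this depth in either, and the ratio of COL4A1 was 1.97 times that of COL4A2 with an interval of 0.794 to 4.95. The side of 1 depended on the scaling: COL4A1 was at 0.855 with libraries scaled by protein-coding reads, and COL4A2 at 1.35 with RPKM values made to sum alike. Among the other type IV chains COL4A5 was the only one with a mean above 1 RPKM, at 5.01 RPKM in the IP and 2.69 RPKM in the input, a ratio of 1.86 (1.47 to 2.38). COL4A6 had 38 IP and 4 input reads, COL4A4 had 10 and 0, and COL4A3 had 2 and 0.

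**Figure D1:**
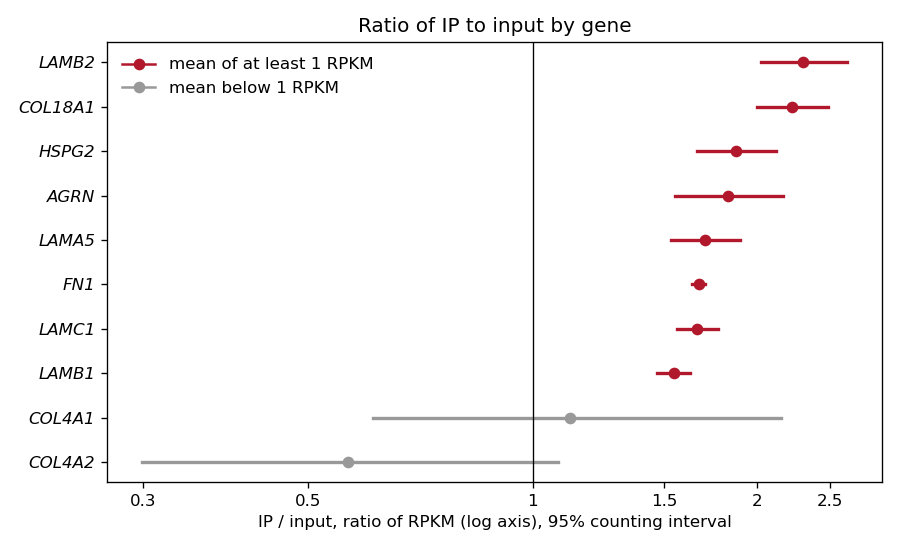
Ratio of IP to input RPKM for each gene (log axis), with bars for the exact 95% interval of both read counts. Red genes have a mean of at least 1 RPKM and lie between 1.54 and 2.30, and the grey intervals of COL4A1 and COL4A2 include 1.

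In RefSeq COL4A1 and COL4A2 lie head to head on chromosome 13, whereas the outer spans of their deposited entries overlap at their 5′ ends. No exonic bases shared by both entries were found. Sequence upstream of their starts is shown beside that of FN1 because the pair is at the bottom and FN1 at the top of the range of levels. Both RefSeq starts (GRCh38.p14) are separated by 126 bases. The first line gives 100 of them from the COL4A1 side (chr13:110307158-110307257, plus strand, the strand of COL4A2), and the other gives 200 bases upstream of the FN1 start (chr2:215436079-215436278, minus strand). Capitals mark the motifs GGGCGG (GC box), CCAAT and TGACGTCA (cAMP response element) on either strand.
COL4A1 and COL4A2 shared spacer: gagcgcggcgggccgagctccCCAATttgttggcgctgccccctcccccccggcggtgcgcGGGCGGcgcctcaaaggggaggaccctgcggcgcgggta
FN1 upstream: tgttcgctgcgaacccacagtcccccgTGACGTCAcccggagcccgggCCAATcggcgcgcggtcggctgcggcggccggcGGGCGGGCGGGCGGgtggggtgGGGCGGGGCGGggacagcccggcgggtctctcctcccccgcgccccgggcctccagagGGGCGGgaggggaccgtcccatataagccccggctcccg

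Both stretches held CCAAT once, and the GC box occurred 1 time between the collagen genes and 6 times upstream of FN1, in part overlapping itself. RefSeq windows of 250 bases upstream of the start were found for 9 of the 10 genes, 10 windows in all (none for AGRN). The GC box was in all 10 of these windows against 42.6% of 35116 windows, CCAAT in 3 (FN1, COL4A1 and COL4A2) against 32% of them, TGACGTCA in that of FN1 against 1.65%, and TATAAA in 1 of the windows of COL18A1 against 10.7%. The windows of COL4A1 and COL4A2 overlap in the spacer between their starts, and its 1 CCAAT and 1 GC box were counted for both genes. The windows were rich in G and C, from 58.4% in LAMB2 to 88.4% in a window of COL18A1, beside a median of 58% over all windows. These matches describe letters and not binding, and genes of the set at the lowest and highest levels shared CCAAT and the GC box.

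Counted by fold, few of the genes passed 2-fold. Log2 ratios were taken as log2((IP + 1)/(input + 1)) of RPKM values, a scale on which changes of low genes come out too small. At 1.15, LAMB2 was past 2-fold higher in the IP, as was COL18A1 at 1.11, and 0 of the 10 genes were past 2-fold lower. Past 2-fold higher were also 11.3% of the 14057 genes, and 9.45% of the protein-coding genes with at least 5000 bases of exons. At least 2-fold lower were 8.25% of the 14057 genes. The median over the 8 genes above the filter was 0.76, and over all 10 genes it was 0.73. Among the long protein-coding genes the 8 ranged from the 73.7th percentile for LAMB1 to the 94.0th for LAMB2. The median of the 14057 genes was 0.14 and that of the long protein-coding genes 0.26.

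How the libraries are scaled to each other decided the 2-fold count. With the deposited values, higher genes were 57.9% of those past 2-fold in either direction. The share was 44.6% with the median of all genes set to 0, 29.7% with libraries scaled by their protein-coding reads and 94.98% with RPKM values made to sum alike. The median of all genes was then 0, -0.16 and 1.21. Under these scalings 1, 0 and 8 of the genes were past 2-fold higher, the single gene after centring being LAMB2. Of all 14057 genes, 8.37%, 5.65% and 60.6% were past 2-fold higher under the same scalings. The 8 measured genes stayed above 0 under each of them, with medians of 0.62, 0.39 and 1.98, and their median lay above that of the long protein-coding genes, which was 0.12, -0.03 and 1.32.

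The log2 ratio of protein-coding genes went with exon length, and all 10 genes are long. Protein-coding genes with less than 2000 bases of merged exons had a median of -0.07, and those with 15000 or more a median of 0.45. In the class from 5000 to 10000 bases, with a median of 0.23 and an upper quartile of 0.60, LAMB1 stood at 0.62, LAMC1 at 0.72, COL18A1 at 1.11 and LAMB2 at 1.15. From 10000 to 15000 bases the median was 0.38 and the upper quartile 0.74, and LAMA5 stood at 0.72 and AGRN at 0.77. In the class of the longest genes, with an upper quartile of 0.82, FN1 stood at 0.74 and HSPG2 at 0.81. Thus 5 of the 8 measured genes lay above the upper quartile of their own length class, and LAMA5, FN1 and HSPG2 lay below it and above the median. The part of length in the ratios was not tested.

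**Figure D2:**
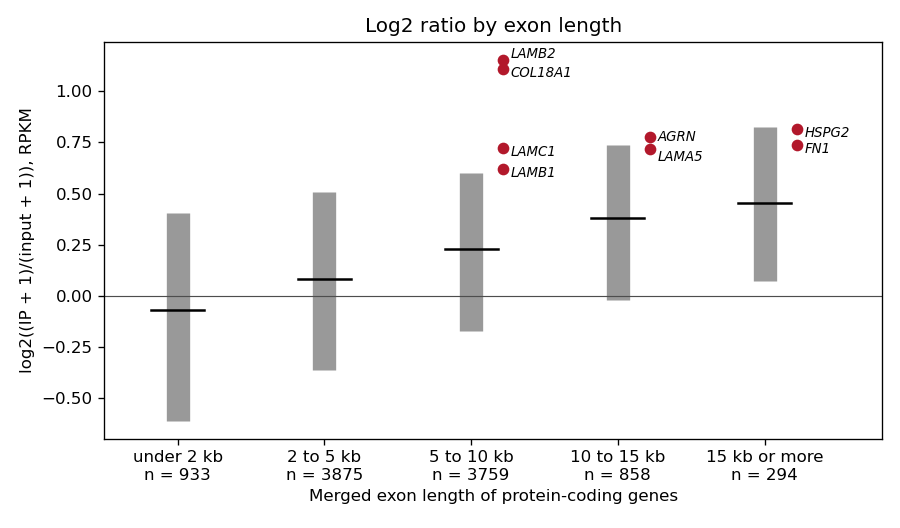
Log2((IP + 1)/(input + 1)) of RPKM for protein-coding genes in 5 classes of merged exon length, as quartile range (grey bar) and median (black line), with the 8 measured genes as red points. Medians climb from -0.07 to 0.45 with length, and LAMB2 and COL18A1 stand farthest above their class.

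Placed here by overlap with exons on their strand, 33 peaks of the authors' deposited list of enriched regions lay on 7 of the 10 genes. None of the peaks analysed lay on FN1. Fold enrichments, p-values and false discovery rates (FDR) of the peaks are the authors'. No source used here says how the folds were scaled, so they are not set against the RPKM ratios. At least 1 peak was found in 21.4% of the 14057 genes and in 40.6% of the long protein-coding genes. The share rose with length among protein-coding genes. It was 35.5% from 5000 to 10000 bases of exons, 55.8% from 10000 to 15000 and 60.5% at 15000 or more. HSPG2 carried 10 peaks, LAMC1 6, AGRN and COL18A1 5 each, LAMB2 4, LAMA5 2 and LAMB1 1. COL4A1, COL4A2 and FN1 had 0. Per 10 kb of exons the 8 measured genes had 3.58 peaks, all measured genes 1.20 and the long protein-coding genes 1.37.

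Peaks of these genes covered between 51 and 739 exonic bases, with a median of 151 against 176 over all 7643 peaks. In the authors' deposited table their folds ran between 2.01 and 8.58 with a median of 2.57, against 2.71 over all peaks. The FDR exceeded 0.05 for 16 of the 33 (48.5%, against 39.7% of all peaks), and the p-value was at most 0.001 for 6 (18.2%, against 23.3%). Cutting the exons from the 5′ end at 25%, 50% and 75% left 6, 11, 6 and 10 peak centres in the 4 stretches, and 14 peaks spanned more than 1 merged exon block.

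Peaks of the laminin chains lay at different places. In LAMC1 a group of 3 covered blocks 1 to 3 of 29, and 2 lay in the last block. The best supported peak of LAMC1 covered 51 bases of blocks 18 and 19 (chr1:183127357-183128596), with a fold of 2.13 and a p-value of 7.02e-08 in the authors' deposited table, and the highest fold was 2.83 at the junction of blocks 1 and 2, with a p-value of 0.0257. The 4 peaks of LAMB2 were centred at 65.0%, 72.0%, 77.2% and 98.2% of its exons, in blocks 21, 22 and 25 of 25. The smallest p-value for LAMB2 in the authors' deposited table was 0.000693 (fold 2.07, chr3:49122842-49123017), and the highest fold was 2.65, with a p-value of 0.0209. LAMA5 had both peaks towards its 3′ end. In the authors' deposited table the peak in blocks 68 and 69 of LAMA5 had a fold of 3.90 and a p-value of 0.0332, and the peak in blocks 75 to 79 a fold of 2.99 and a p-value of 0.00581. The single peak of LAMB1 covered 151 bases of blocks 14 and 15 of 35, with a fold of 2.64 and a p-value of 0.00324 in the authors' deposited table.

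COL18A1 held 4 of the 6 peaks with a p-value of at most 0.001, and these 4 lay close together. They were centred between 35.3% and 42.5% of the exons, in blocks 14 to 25 of 43. The smallest p-value of the 33 peaks, 3.19e-11 in the authors' deposited table, belonged to a peak over blocks 17 to 23 (chr21:45486958-45491281, 326 exonic bases) with a fold of 2.31. The peak with the highest fold in COL18A1 lay in block 4, with a fold of 2.65 and a p-value of 0.0209 in the authors' deposited table. SLC19A1 overlaps 1563 exonic bases of COL18A1 on the opposite strand, and no COL18A1 peak lay on them.

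HSPG2 had peaks from one end to the other, with centres from 2.23% to 98.8% of its 18118 exonic bases. The highest fold of the set, 8.58, came from 76 bases of block 53 of 99 (chr1:21854858-21854933), with a p-value of 0.0178 and an FDR of 0.0510 in the authors' deposited table. HSPG2 had 332 input reads over all its 18118 exonic bases, so a fold over 76 bases can rest on very few input reads. The smallest p-value of HSPG2 in the authors' deposited table was 0.00237, for a peak with a fold of 3.38 over blocks 93 to 97. At its 3′ end HSPG2 shares 2122 exonic bases with LDLRAD2 on the opposite strand, which had 208 IP and 37 input reads. That peak and the 2 nearest the 3′ end, 3 of 10, lay in part or whole on shared bases (210 of 326, 201 of 201 and 276 of 276). The libraries were stranded per the labels, and no source used here says whether the counting used the strand. AGRN had its peaks between 33.0% and 86.6% of the exons, and a peak over blocks 14 to 16 had both the highest fold, 4.29, and the smallest p-value, 0.00787, in the authors' deposited table. On its own strand AGRN shares 402 bases with AL645608.5 (21 IP and 0 input reads), and no AGRN peak reached them.

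**Figure D3:**
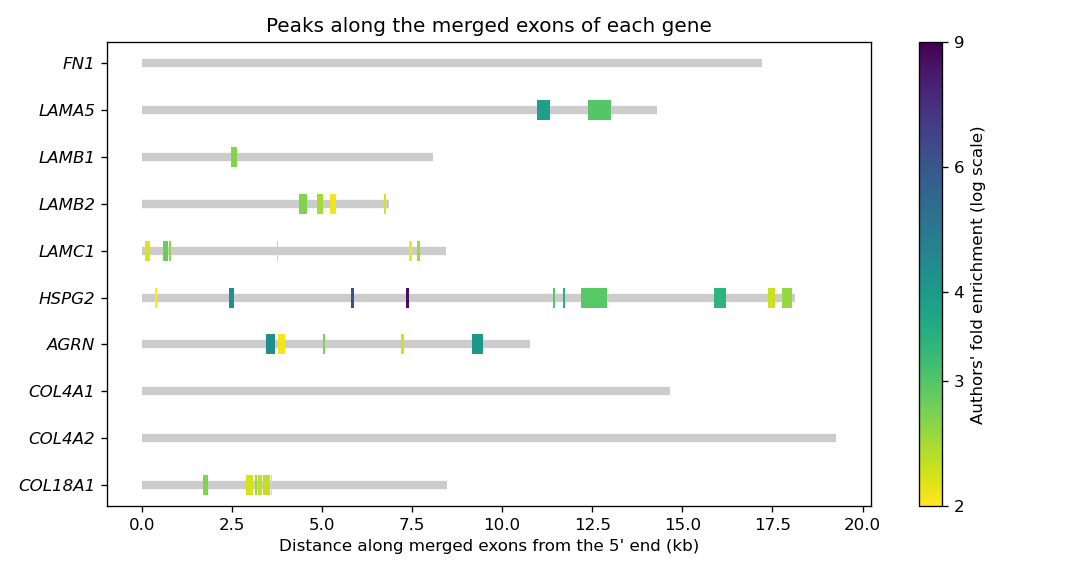
Authors' peaks along the merged exons of each gene, as distance from the 5′ end in kb, coloured by the authors' fold enrichment on a log scale, with grey bars for the exons. FN1, COL4A1 and COL4A2 carry none, COL18A1 has 4 of 5 peaks close together, and HSPG2 holds the highest fold, 8.58, over 76 exonic bases (authors' FDR 0.0510).

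FN1 was 1 of 17 protein-coding genes with at least 10000 IP reads and a ratio between 1.5 and 2.5, limits chosen after the values were seen. Of these 17 genes, 82.4% (14 genes) carried at least 1 peak. PTMA (51133 IP reads, 3 peaks) was the only other gene among them with as many IP reads as FN1. KRT8 (24317 IP and 7028 input reads) and TF (12585 and 3948 reads) were the other genes of this group without any. Below that limit of the ratio, APOB (38173 IP reads, ratio 1.27) and SERPINA1 (20557 IP reads, ratio 1.45) also had 0 peaks. Peak numbers in the deposited list follow gene symbols in alphabetical order, and 1 number is absent between the peaks of FMNL2 and FNBP1, where FN1 would fall. Between COL27A1 and COL4A5, where COL4A1 and COL4A2 would fall, 0 numbers are absent. Within the number ranges of the 7 genes with peaks, 9 numbers are absent. Peaks with absent numbers were not analysed here and whether one lay on FN1 is not known.

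Most measured genes of the other basement membrane and interstitial matrix lists had log2 ratios above 0 (8 of 9 and 11 of 12). Counting intervals lay wholly above 1 for 6 of 9 and 7 of 12, beside 31.4% of all and 47.4% of the long protein-coding genes. The share of all genes with a log2 ratio above 0 was not computed. Their median was itself above 0, at 0.14, and that of the long protein-coding genes was 0.26. Scaled by protein-coding reads, these medians were -0.16 and -0.03, so counts above 0 depend on the scaling. The lowest of each list, NTN4 and COL12A1, lay below 0 with intervals that included 1. Of 30 other basement membrane genes 9 were measured (a mean of at least 1 RPKM), with 0 past 2-fold in either direction and a median of 0.40, from NTN4, a laminin-related netrin (ratio 0.922, interval 0.540 to 1.62), and NPNT, an integrin ligand (1.10, 0.859 to 1.41), to VWA1, a perlecan-binding protein (1.79, 1.25 to 2.62), and COL4A5. Interstitial matrix genes had a median of 0.34 with 1 of 12 higher, from COL12A1 (0.918) and COL1A2 (1.05) to COL5A2 (1.45, 1.39 to 1.51) and COL27A1 (2.55, 2.12 to 3.08), a fibrillar collagen with 9 peaks. COL5A2 was abundant, at 216 RPKM in the IP and 149 RPKM in the input, and carried 0 peaks.

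The highest and lowest genes of each list are those by log2((IP + 1)/(input + 1)), and the values in brackets are ratios of RPKM with no number added. On the plain ratio some genes of low level stood farther out than those named: ITGA7 (2.58) among receptors, BMP1 (2.88) and FKBP14 (0.508) in collagen folding and export, with SAR1B (0.583) also below P4HA1, and EXTL3 (3.00) in heparan sulfate synthesis. The same held for COL6A1 (1.82) and FBN1 (1.52) against COL5A2 in the interstitial matrix.

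Receptors of these proteins had a median of 0.25, with 1 of 17 past 2-fold higher and 0 past 2-fold lower. BCAM, a receptor of the laminin alpha 5 chain, was highest on the log2 scale (ratio 2.18, 1.81 to 2.65), followed by the laminin and agrin receptor dystroglycan, DAG1 (1.99, 1.68 to 2.35). RPSA, also called the laminin receptor and a component of the small ribosomal subunit, was lowest (0.646, 0.585 to 0.714), beside the collagen-binding integrin ITGA2 (0.741, 0.477 to 1.17).

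Enzymes that build the matrix went both ways. In the list of collagen folding, modification and export (median 0.29, 2 of 25 higher and 0 lower) the lysyl hydroxylase PLOD3 (2.21, 1.81 to 2.73) and the chaperone HSP90B1 (2.65, 2.60 to 2.71) were highest on the log2 scale. The lysyl hydroxylase PLOD2 (0.566, 0.493 to 0.650) and the prolyl hydroxylase subunit P4HA1 (0.585, 0.491 to 0.697) were lowest on that scale. In heparan sulfate synthesis (median 0.30, 3 of 21 higher and 0 lower) the sulfotransferases NDST1 (2.91, 2.25 to 3.81) and HS6ST1 (3.77, 2.30 to 6.55) were highest on it, and EXTL2 (0.539) and the epimerase GLCE (0.616) lowest. Matrix proteases and inhibitors had a median of 0.28 with 1 of 18 higher and 0 lower, from the urokinase receptor PLAUR (0.499, 0.304 to 0.823) and ADAM9 (0.797) to ADAMTS1 (2.18, 1.73 to 2.78) and the membrane-bound MMP15 (2.32, 1.82 to 2.98).

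**Figure D4:**
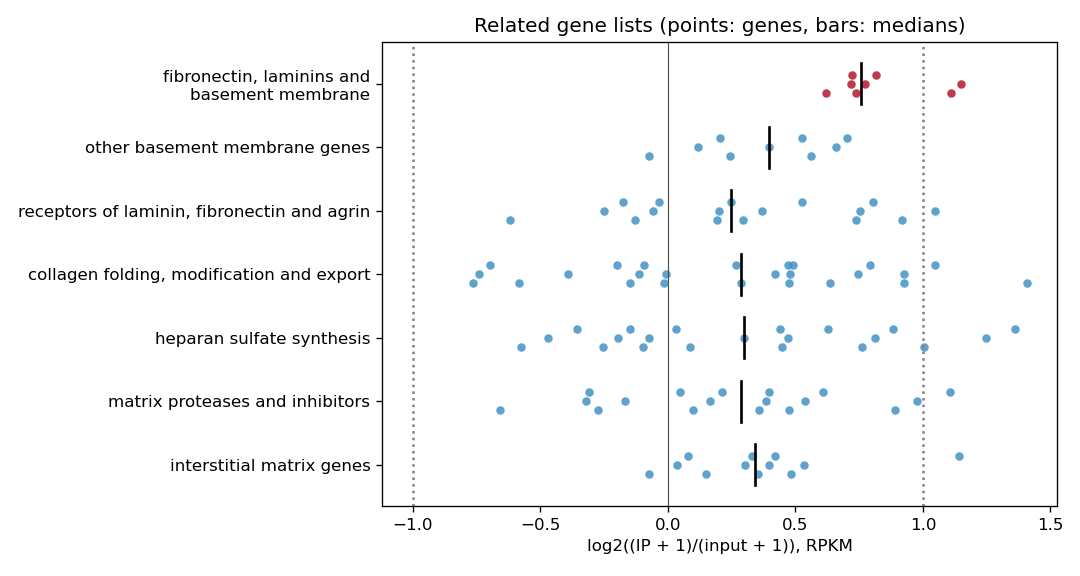
Log2((IP + 1)/(input + 1)) of RPKM for measured genes, as points by list, with the median as a black bar and dotted lines at 2-fold. The 8 genes of the set (red) lie between 0.62 and 1.15, and the other lists have medians from 0.25 to 0.40. Lists were not matched for exon length. The 8 genes have 6865 to 18118 exonic bases, and the median lengths of the lists run from 5002 to 9915.5 bases.

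Markers of hepatocytes were abundant in both libraries, and those of fibroblasts and endothelial cells were low. The summed level of the 8 hepatocyte markers was 5737 RPKM in the IP and 6740 RPKM in the input. AFP, the most abundant of them, stood at 1613 RPKM in the IP and 2814 RPKM in the input. Of the 8, 4 had a log2 ratio above 0, and their median was 0.02. The 6 listed fibroblast and stellate markers summed to 4.17 RPKM in the IP and 3.19 RPKM in the input, with COL1A1 at 8 and 2 reads. The 4 listed endothelial markers summed to 2.77 RPKM in the IP and 4.29 RPKM in the input, with CDH5 at 2 and 0 reads and KDR at 8 and 4. Cholangiocyte markers summed to 89.2 RPKM in the IP and 88.8 RPKM in the input, and immune markers to 17.7 RPKM in the IP and 24.6 RPKM in the input. Among the 4 cholangiocyte markers only KRT19 (ratio 1.38) and EPCAM (0.758) passed the filter. Of 4 measured immune markers only CD68 (1.10, 0.835 to 1.45) had a log2 ratio above 0. Of these 4, 2 were past 2-fold lower, beside 8.25% of the 14057 genes. They were TYROBP at -1.56 (8 IP and 16 input reads) and CD3E at -1.07 (14 and 22 reads). Erythroid markers, which encode haemoglobin chains and a heme enzyme, summed to 694 RPKM in the IP and 1052 RPKM in the input, lower in the IP, while the 8 measured genes of the set were higher. HBB alone stood at 467 RPKM in the IP and 738 RPKM in the input, above FN1 in both libraries. The source of the erythroid reads and their part in the ratios were not tested. Scaling by protein-coding reads multiplies each ratio given here by 0.763, and equal RPKM sums multiply it by 2.39. With equal sums, each ratio under 1 given for a gene of the lists other than the cell type markers lies above 1.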

How the data were processed

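RNA of 1 IP and 1 input library of Huh-7 cells was analysed, grouped by title. The submitters' processing notes name Trimmomatic for trimming and STAR 2.5.3a for alignment. For counter, annotation, peak caller and build: not given in the sources used here. One RPKM per gene and library was deposited (the header names no unit), with 0 columns of other samples. In both libraries 100% of the values were whole multiples of 1 read within 0.01 of a read, which gave 5897293 IP and 2782045 input reads. No count model was fitted, and no p-value is of this work. Per the labels, molecular identifiers marked the cDNA; no source used here says whether reads or identifiers were counted. The authors' peak table has a fold (a ratio of IP to input) and a p-value per peak, with an FDR and, per the file headers, a score, which equalled -log2 of the FDR.

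The main value was log2((IP + 1)/(input + 1)) on RPKM for genes with a mean of at least 1. Ratios have exact (Clopper-Pearson based) 95% intervals, and ratios of ratios exact conditional ones. Each peak went to the gene on its strand whose exons it covered most. Biotypes and upstream sequences came from RefSeq (GRCh38.p14), matched by symbol. Named by rule were all 10 genes, the 2 highest and 2 lowest measured genes of each list, and for each gene the peaks with the highest fold and smallest p-value. Chosen with values in view were NID1, overlapping genes, other laminin and type IV chains, other peaks, KRT8, TF, PTMA, ITGA7, BMP1, FKBP14, SAR1B, EXTL3, COL6A1, FBN1 and single markers. The genes and lists were chosen with earlier results of these data known. The interval code was tested on simulated data. Tools were Python 3.11.15 with scipy 1.17.1, pandas 2.3.3, numpy 2.4.6 and matplotlib 3.10.9.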

Additional observations from a re-analysis of the deposited data

How the results depend on the processing

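As deposited, 2 of the genes were at least 2-fold higher, and the count became 0 with a pseudocount of 5, 1 after centring, 0 after scaling to protein-coding reads and 8 after scaling to the same sum of RPKM, where 8.37% (centred), 5.65% and 60.6% of all genes passed. It stayed at 2 with a pseudocount of 0.1, without the filter, without the genes that share exon bases on their own strand (AGRN and LAMA5) and on the ratio without pseudocount, an alternative chosen after seeing the data. The median log2 ratio of 0.76 became 0.39 with scaling to protein-coding reads and 1.98 with scaling to the same sum of RPKM, and otherwise lay between 0.62 (centred) and 0.82 (ratio without pseudocount). Of 33 peaks, 17 had a false discovery rate of at most 0.05, 6 a p-value of at most 0.001 and 8 a fold of at least 3; all 33 kept at least 50% of their exonic bases in the same gene. No single gene called 2-fold changed direction. Depth limits COL4A1 and COL4A2, with at most 38 reads per library. No paired analysis was possible because each group has 1 library.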
